A study of Sus scrofa with 14 samples.

Results

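Uterus from 9 low prolificacy sows was ordered by the transcripts of 3 keratins of simple epithelium, and the 4 arrays with the most keratin were compared with the 4 with the least. Each array was scored by the mean log2 level of KRT8, KRT18 and KRT19, taking for each gene the probe set with the highest mean over the 9 arrays, and the array in the middle was left out. The comparison therefore used 8 of the 14 arrays of the study. All sows were Iberian x Meishan F2 animals, from an intercross in which the founder alleles segregate, and were slaughtered at 30 to 32 days of the fifth gestation. The study placed 5 of them in a high and 9 in a low prolificacy phenotype, with 1 Affymetrix porcine array per sow. The sows received no treatment, the labels do not say which part of the uterine wall was frozen, and they give no litter sizes. The arrays are called low 1 to low 9 and high 1 to high 5 after their replicate numbers.

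The lining of the pregnant sow's uterus is a simple epithelium, continuous with glands that reach into the stroma below it, and the whole lies on a thick coat of smooth muscle. Keratin 8 pairs with keratin 18 or 19 to form the filaments of such an epithelium. The pig placenta does not invade, so the trophoblast adheres to the intact lining and takes up what the epithelium and glands secrete and transport. Trophoblast and the mesothelium on the outer surface of the uterus also make these keratins, so the transcripts alone do not name their source. In a piece of whole tissue, fewer cells of a type and less RNA per cell cannot be told apart.

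The keratin scores separated 2 arrays from the other 7 and hardly divided the rest. From the highest to the lowest, low 3 scored 9.20, low 5 scored 8.97, low 4 scored 8.94 and low 8 scored 8.73, and these are the keratin-rich arrays. The middle array, low 1, scored 8.71. The keratin-poor arrays were low 2 at 8.63, low 6 at 8.23, low 9 at 6.87 and low 7 at 6.83. The array just inside the keratin-rich set lay 0.010 above the middle array, and the one just inside the keratin-poor set lay 0.087 below it, whereas low 6 and low 9 were 1.36 apart. The 7 highest scores thus covered 0.98 on the log2 scale, and low 9 and low 7 lay far below them. KRT8, the type II partner, was measured at 9.91, 9.63, 9.86 and 9.89 in the keratin-rich arrays low 3, 5, 4 and 8, and at 9.32, 9.10, 7.89 and 7.76 in the keratin-poor arrays low 2, 6, 9 and 7. Values of other genes are given in these 2 orders below. The members of both sets were chosen by these 3 levels, which are given as a description, with no test. The mean score was 1.32 higher in the keratin-rich set. All 5 high prolificacy arrays scored higher than any of the 9, between 10.12 and 11.43. The name epithelium-poor would fit low 7 and low 9 and not low 2, which resembled the keratin-rich arrays, so the sets are named here by their keratins.

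**Figure D1:**
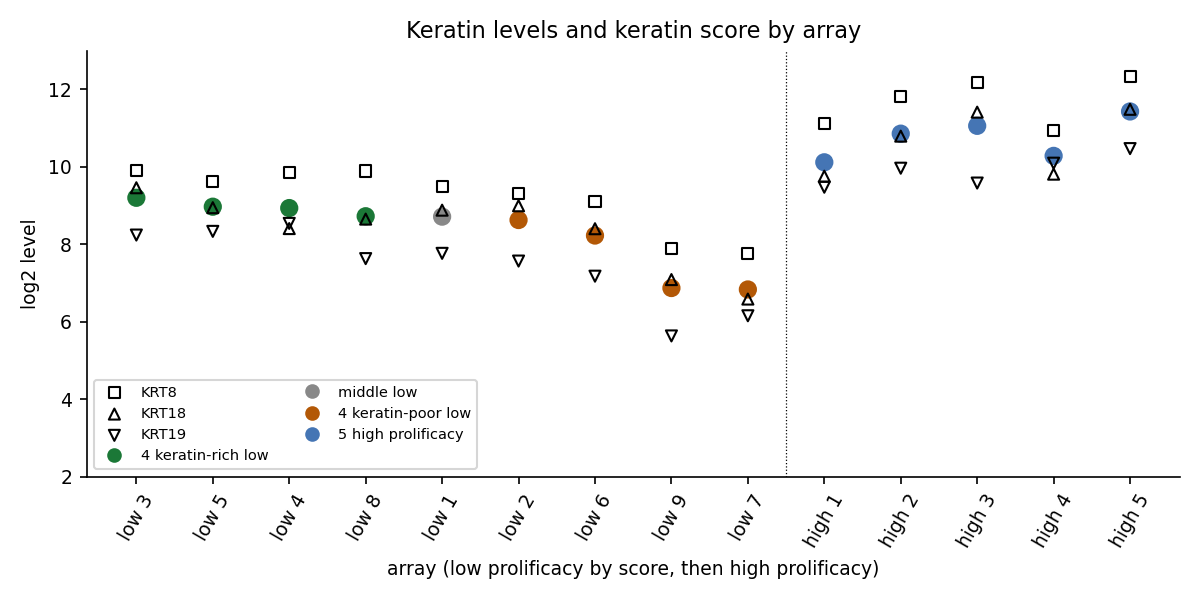
Levels of KRT8, KRT18 and KRT19 (open symbols) and their mean, the keratin score (filled circles), on a log2 axis for each of the 14 arrays, 1 sow each, with the 9 low prolificacy arrays in order of score and the 5 high prolificacy arrays to the right. Low 9 and low 7 score 6.87 and 6.83, the other 7 low prolificacy arrays score between 8.23 and 9.20, and the high prolificacy arrays score between 10.12 and 11.43.

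Scores from other keratin values moved arrays near the middle. KRT8 alone gave the same sets. KRT18 alone put low 1, 2, 3 and 5 in the rich set and low 4, 6, 7 and 9 in the poor set. KRT19 alone, and the mean of every probe set of the 3 genes, put low 1, 3, 4 and 5 in the rich set and low 2, 6, 7 and 9 in the poor set. Low 3 and low 5 were in the rich set under every score, and low 6, 7 and 9 were in the poor set.

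Low 3 stood apart from the other 8 arrays over the whole transcriptome. In low 3, 16.4% of the probe sets lay over 2-fold from the median of the other 8 low prolificacy arrays, against 2.03% to 6.81% for the others. It also held the far end of the first principal component of the 9 arrays, which carried 33.6% of the variance. No array pair held identical values, and pairwise correlations over all probe sets ran from 0.914 to 0.983. Of 7 measures of array quality, the signal of the hybridization spike-ins did not overlap between the sets, at 9.40 to 9.67 in the keratin-rich and 9.69 to 10.27 in the keratin-poor arrays (exact two-sided permutation p = 0.029, the smallest that 70 splits allow, and 0.20 after Benjamini-Hochberg adjustment over the 7). The highest signal was in low 7, and the middle array, low 1, was at 9.95, within the keratin-poor range. The poly-A spike-ins, another of the measures, overlapped between the sets but were at 7.11 in low 3, 6.93 in low 9 and 6.52 in low 7. They lay between 5.35 and 5.80 in the other low prolificacy arrays. The 3-prime minus 5-prime difference of actin, a measure of RNA integrity, was largest in low 8 at 2.11 and in low 9 at 1.77, so each set held an array of this kind. The part of these measures in the results was not tested.

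No transcript passed the test between the 4 keratin-rich and the 4 keratin-poor arrays. With limma and Benjamini-Hochberg adjustment over 23995 probe sets, 0 were called at an adjusted p of 0.05, which is 0%, and the smallest adjusted p was 0.88. At an unadjusted p under 0.05 there were 860 probe sets, or 3.58%, fewer than that threshold passes on average where nothing differs. All 4 keratin-rich arrays lay above all 4 keratin-poor arrays in 324 probe sets (1.35%) and below them in 140 (0.583%). With 1 probe set per gene, these were 134 and 23 of 6762 genes (1.98% and 0.34%). Because the arrays were ordered by transcripts of the same arrays, such a p says how closely a transcript followed the 3 keratins and nothing about prolificacy. The differences between the sets given below therefore carry no call.

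The keratin score used as a number over all 9 arrays gave calls, but these rested on 2 arrays. The slope of a transcript on the score, in log2 units per log2 unit of score, was called by limma for 239 of 23995 probe sets (0.996%), 179 rising with the score (0.746%) and 60 falling with it (0.25%). In 177 of the 179 that rose, low 7 and low 9 were the 2 lowest of the 9 arrays, and in all 60 that fell they were the 2 highest. Over all probe sets tested the same positions were held in 5.57% and 5.16%. Without low 7, 1 probe set was called, without low 9 there were 55, and without both there were 0, with 1563 at an unadjusted p under 0.05. Leaving out low 3 raised the count to 847, and leaving out low 8 raised it to 424. Without low 5 there were 78 calls, and without low 1, low 2 or low 6 there were 123, 127 and 139. With the mean of 20 smooth muscle genes as a covariate, 0 were called, with 2622 at an unadjusted p under 0.05.

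**Figure D2:**
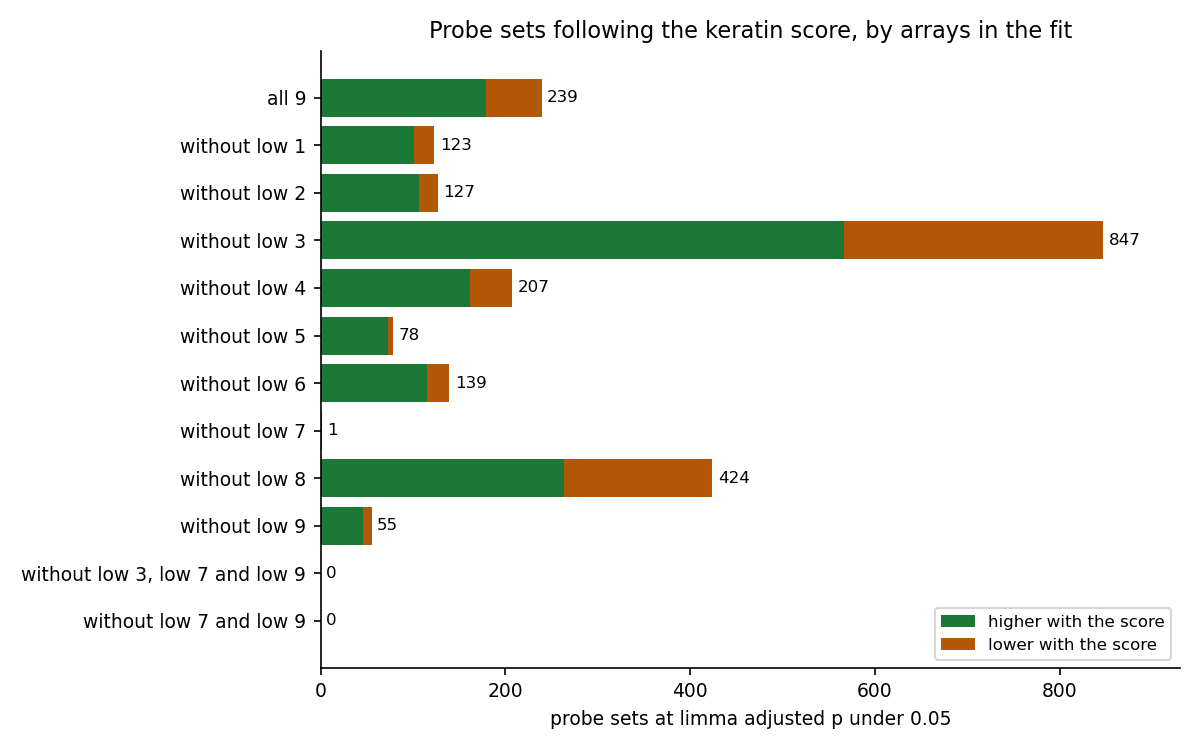
Number of probe sets whose level followed the keratin score at a limma adjusted p under 0.05 (x axis) in fits to all 9 low prolificacy arrays and to fewer (y axis), with those rising and those falling with the score in different colours. The count is 239 with all 9 arrays, 847 without low 3, 1 without low 7 and 0 without low 7 and low 9.

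Epithelial genes other than the keratins had the largest median difference of the 38 gene lists and were at their lowest in low 7 and low 9. Of 28 genes of a uterine epithelium list, 20 were on the array, 19 averaged higher in the keratin-rich arrays and 0 were called between the sets. Their median difference was 1.45 on the log2 scale, beside 0.07 over 6762 genes with 1 probe set each. On the score, 11 of the 20 rose and 0 fell, against 1.27% of genes that rose and 0.177% that fell among the 6762. In 17 of the 20 genes, low 7 and low 9 were the 2 lowest of the 9 arrays. The slope calls were 15 without low 3, 0 without low 7 and 5 without low 9, all rising. Among the 6762 genes, 235, 0 and 18 rose in the same fits, and 67, 0 and 3 fell. Without both low 7 and low 9 the median difference was 0.41 and no member was called.

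Among the members of the epithelium list were several genes of cell contacts, chosen here for their roles. CDH1, the E-cadherin of adherens junctions, was at 9.90, 11.08, 10.31 and 10.06 in the keratin-rich arrays and at 10.11, 9.50, 7.80 and 6.82 in the keratin-poor arrays. Low 2 lay within the range of the keratin-rich arrays, and low 9 and low 7 lay well below it. The sets differed by 1.78 ± 0.68 (SE, n = 4 and 4), and the slope on the score was 1.46 ± 0.20 (SE, n = 9, limma adjusted p = 0.013). EPCAM, an adhesion molecule on most epithelial cells, was at 10.61, 11.24, 10.76 and 10.79 against 10.81, 10.28, 8.30 and 7.74. Its level lay between 10.28 and 11.24 in 7 arrays and was far lower in low 9 and low 7 (slope 1.37 ± 0.15, limma adjusted p = 0.0048). DSP, the desmoplakin that ties desmosomes to keratin filaments, was at 9.55, 8.86, 8.28 and 8.73 against 8.25, 7.68, 6.35 and 5.70. Its sets did not overlap, with low 4 just above low 2, and it gave the smallest adjusted p of the list (slope 1.34 ± 0.12, limma adjusted p = 0.0031). OCLN, occludin of tight junctions, was at 9.47, 9.41, 8.79 and 9.74 against 8.52, 8.38, 7.22 and 6.91 and was the other of the 2 members without overlap, beside 1.98% of the 6762 genes. The claudins CLDN3, CLDN4 and CLDN7, which set what passes between the cells, had slopes of 1.31, 1.16 and 1.35, all called. A separate list of junction and polarity genes did not show this pattern, with 3 of 7 averaging higher, 4 lower, a median of -0.04 and 0 called between the sets or on the score. JUP, the plakoglobin of desmosomes and adherens junctions, was at 7.71, 6.80, 7.39 and 6.71 against 7.13, 7.55, 7.00 and 8.64, highest in low 7.

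Regulators and surface enzymes of the epithelium followed. FOXA2, a transcription factor of uterine glands, was at 9.64, 9.81, 8.80 and 8.81 against 9.36, 9.12, 6.85 and 5.70. Here both low 2 and low 6 lay within the keratin-rich range (slope 1.43 ± 0.19, limma adjusted p = 0.013). For CDH1, EPCAM, DSP and OCLN, low 6 lay below that range. The high prolificacy arrays, for all their keratin, held FOXA2 between 7.77 and 9.21, beside 8.76 to 9.81 in the 7 low prolificacy arrays with the higher scores. ESRP1, a splicing regulator of epithelial cells, PRSS8, a membrane-bound protease, and SPINT2, an inhibitor of such proteases, were also called, with slopes of 1.05, 1.09 and 1.5. Not called were MAL2, ELF3, EHF, SPINT1, ST14, MUC1, MUC4, CDH17 and PROM1.

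The mucins set low 3 against the other keratin-rich arrays. MUC1, the mucin of the apical surface, was at 7.48, 5.95, 5.66 and 6.49 against 5.73, 5.08, 4.56 and 4.83, with its highest level in low 3. MUC4, also a membrane mucin, was at 4.10, 7.55, 7.85 and 7.43 against 6.49, 4.20, 4.46 and 4.02. Low 3 thus had MUC4 at the level of low 6, 9 and 7 although it had the most keratin. The high prolificacy arrays held MUC4 between 8.25 and 10.10, above all 9. EHF, a transcription factor of epithelia, was likewise highest in low 3, at 8.70, and lowest in low 7, at 3.18.

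**Figure D3:**
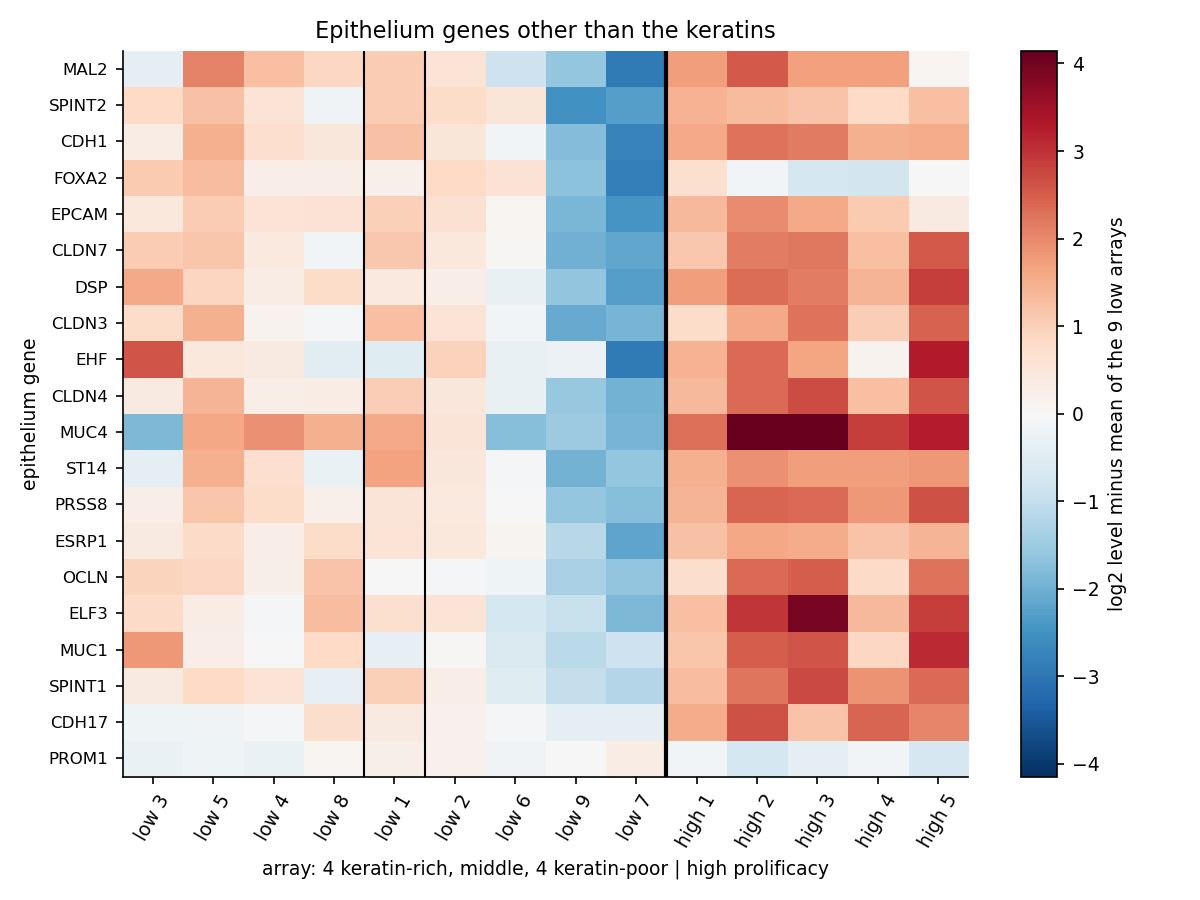
Level of each of the 20 epithelium genes on the array (rows, ordered by slope on the keratin score) in each array (columns), as the log2 difference from that gene's mean over the 9 low prolificacy arrays, red for higher and blue for lower. Low 9 and low 7 are blue for nearly all genes, low 2 resembles the keratin-rich arrays, and MUC4 is low in low 3, at 4.10.

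The genes with the smallest p between the sets, though none was called, did not drop in low 7 and low 9 alone. All 12 that averaged higher had 4 keratin-rich arrays above 4 keratin-poor arrays, which was so for 1.35% of all probe sets and is what a small p selects. MYO5B, a motor that recycles membrane to the apical surface, was at 9.00, 8.57, 8.16 and 8.84 against 7.65, 7.27, 6.41 and 7.18, a difference of 1.51 ± 0.29 (SE, n = 4 and 4, limma adjusted p = 0.99). MAL, a protein of apical sorting, was at 6.96, 7.72, 7.36 and 7.31 against 6.65, 6.25, 5.81 and 5.71. SORD, which makes fructose from sorbitol, was at 8.54, 7.98, 8.20 and 8.35 against 7.18, 7.55, 7.45 and 6.77. For MYO5B and SORD low 2 lay within the range of the other 3 keratin-poor arrays or near it, whereas for MAL it lay nearer to low 3 than to low 9 and low 7. The middle array lay below all 4 keratin-rich arrays, with MYO5B at 7.23, MAL at 6.66 and SORD at 7.13, although its score was only 0.010 below that of low 8. SLC15A2, a transporter of small peptides, averaged higher by 1.71 ± 0.36. The others were TMEM139, ABCB6, a porphyrin transporter, TMEM79, RAC1, a small GTPase of the actin cytoskeleton, GPRC5A, REPS1, TMEM86A and ALDH1B1, an aldehyde dehydrogenase, with differences from 0.57 to 1.16. Among the 12, ALDH1B1 alone was called on the score (slope 0.59 ± 0.11, limma adjusted p = 0.044).

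At an unadjusted p under 0.05, 46 of the 6762 genes averaged lower in the keratin-rich arrays and 286 averaged higher. Together they were 332 genes, or 4.91%, no more than that threshold passes on average where nothing differs. The 12 genes averaging lower with the smallest p were taken from all probe sets with 1 symbol. In 7 of them all 4 keratin-rich arrays lay below all 4 keratin-poor arrays. That was so for 0.583% of all probe sets and is what a small p selects. SAL1, a salivary lipocalin, was at 7.94, 8.34, 6.94 and 7.02 against 8.48, 9.61, 9.46 and 9.70, a difference of -1.75 ± 0.39 (limma adjusted p = 0.99). Low 2 and low 5 were near each other, and the middle array was lowest of the 9 at 6.41. The other 6 without overlap were SNTB1, a syntrophin of the dystrophin complex, EEA1, a tether of early endosomes, ZDHHC4, CPEB4, an RNA-binding protein, TGFB2, a growth factor, and EXT1, which builds heparan sulfate, with differences from -1.02 to -0.40. ZDHHC4 lay between 2.16 and 2.79 in the 9 arrays, and without detection calls its level over background is not known. LRRN3, TRIM44, RASSF2, APCDD1, an inhibitor of Wnt signalling, and AKAP2, an anchor of protein kinase A, overlapped between the sets. LRRN3 and AKAP2 fell with the score, with slopes of -0.64 and -0.63. For AKAP2 this was 1 probe set (limma adjusted p = 0.048). Its brighter probe set was not called (slope -0.53, limma adjusted p = 0.052).

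The transcripts that followed the score most closely, named here after their values were seen, again dropped in the same 2 arrays. A second probe set of OCLN ran from 7.99, 7.76, 7.07 and 7.64 to 7.18, 6.53, 4.52 and 4.13 and had the smallest adjusted p of the 23995 (slope 1.54 ± 0.11, limma adjusted p = 0.0012). LSR, a receptor at tricellular junctions, was at 8.08, 8.14, 7.43 and 7.29 against 7.48, 6.72, 5.50 and 5.00. CDA, the cytidine deaminase of pyrimidine salvage, was at 8.70, 8.38, 7.61 and 7.34 against 8.22, 7.60, 5.38 and 4.95. BAIAP2L1, FUT2, a fucosyltransferase, PLPP2, ORMDL2 and ISG12(A), an interferon-induced gene, also rose with the score. Over the 239 called probe sets, 115 carried a single symbol, and these stood for 108 genes, 92 rising and 16 falling. Among the genes that fell, CELF4, an RNA-binding protein, was at 4.85, 4.68, 4.91 and 5.46 against 4.80, 6.14, 7.21 and 7.36. CACNB4, a subunit of calcium channels, was at 4.30, 4.69, 4.67 and 6.13 against 4.59, 6.12, 7.52 and 6.89. Both were highest in low 7 and low 9, with low 6 next for CELF4 and low 6 level with low 8 for CACNB4. FHOD3, an actin-binding formin of muscle, EPDR1, DCLK1, SLC25A21, PPP1R21, PRKAG2, a subunit of AMP-activated kinase, and KCTD9 fell as well. For FHOD3 and DCLK1, 1 probe set each was called, and their other probe sets had negative slopes without a call. OVOL1 fell by 1 probe set only, with a slope of -0.49. Its brighter probe set went the other way and was not called (slope 0.44, limma adjusted p = 0.078).

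Products of the uterine glands did not follow the keratins within the rich set. Of 28 listed genes 21 were on the array, 19 averaged higher in the keratin-rich arrays, and 0 were called between the sets or on the score. Their median difference was 0.55, and 0.23 without low 9. Without low 3, 3 rose with the score, beside 235 of the 6762 genes. UPTI, the plasmin and trypsin inhibitor of the pregnant pig uterus, was at 7.95, 11.94, 12.04 and 10.33 against 10.56, 9.85, 8.39 and 8.22. Low 3, the array with the most keratin, had the least UPTI of all 9, and the high prolificacy arrays held it between 12.54 and 12.98. SPP1, osteopontin, which bridges the lining and the trophoblast, was at 6.99, 13.09, 12.67 and 8.71 against 12.49, 10.18, 6.63 and 9.96. Low 5, low 4, low 2 and the middle array at 13.02 were high, and low 3, low 8 and low 9 were low, so the sets overlapped almost wholly (difference 0.55 ± 1.61). RBP4, which carries retinol in the secretions, was at 11.45, 13.22, 13.01 and 10.90 against 13.05, 12.41, 9.22 and 10.08. ACP5, uteroferrin, the iron-carrying phosphatase of the glands, was at 12.95, 13.83, 13.64 and 12.41 against 13.72, 13.67, 11.60 and 12.26. For both, low 3 and low 8 lay below low 2, and low 9 had the least. GM2A, a lipid-binding lysosomal protein, was the only gland gene with an unadjusted p under 0.05, averaging higher by 1.07 ± 0.37.

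For 2 other genes of the lining, low 3 was again apart from the other keratin-rich arrays. S100G, the calcium-binding protein calbindin-D9k, was at 3.60, 8.68, 7.39 and 7.05 against 5.29, 3.45, 4.76 and 3.74, and the high prolificacy arrays held it between 9.37 and 10.53. SULT1E1, which inactivates oestrogens, was at 4.00, 9.84, 9.18 and 6.41 against 7.81, 2.93, 4.13 and 2.74. Low 5, low 4 and the middle array were high for both, at 7.84 and 9.78 in the middle array, and low 3 lay with low 6, 9 and 7. The differences were 2.37 ± 0.98 for S100G and 2.96 ± 1.5 for SULT1E1 (limma adjusted p = 0.99 for each). Keratin and these 2 transcripts were thus high together in low 5 and low 4, both low in low 9 and low 7, and apart in low 3.

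**Figure D4:**
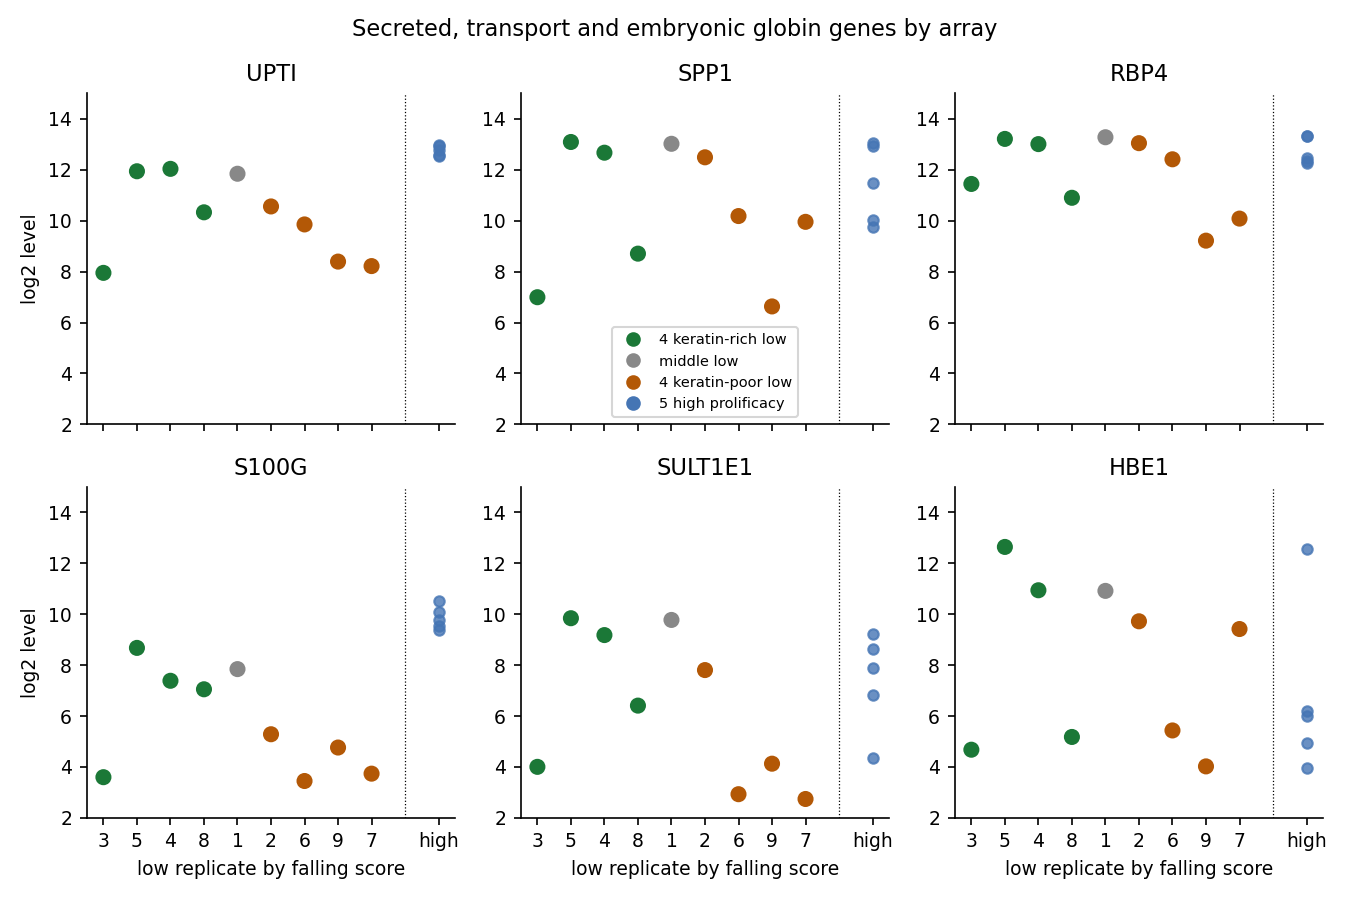
Log2 level of 6 genes in the 9 low prolificacy arrays, in order of falling keratin score (x axis, replicate numbers), and in the 5 high prolificacy arrays at the right. UPTI at 7.95, SPP1 at 6.99 and S100G at 3.60 are low in low 3, which has the highest keratin score, and HBE1 runs from 4.02 in low 9 to 12.65 in low 5.

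Smooth muscle genes were high in every low prolificacy array and somewhat higher where keratin was scarce. All 20 of 23 listed genes on the array averaged lower in the keratin-rich arrays, beside 2677 of the 6762 genes, and 0 were called between the sets or on the score. Their median difference was -0.44, and it was -0.27 without low 7 and -0.11 without low 7 and low 9. DES, desmin of the muscle filaments, was at 12.26, 11.58, 12.58 and 11.77 against 11.69, 12.62, 12.67 and 12.97, a difference of -0.44 ± 0.32 (SE, n = 4 and 4). ACTA2, the smooth muscle actin, lay between 13.26 and 13.71 over the 9 arrays. CNN1, the calponin that regulates contraction, was at 12.58, 11.93, 12.47 and 12.10 against 11.91, 12.84, 12.90 and 13.22. For DES and CNN1, low 5, low 8 and low 2 were the 3 lowest of the 9, from both sets. In the 5 high prolificacy arrays DES lay between 6.38 and 10.79, ACTA2 between 9.84 and 12.82 and CNN1 between 6.18 and 10.69, below all 9 low prolificacy arrays. The most keratin-rich low prolificacy arrays therefore kept muscle transcripts at levels that the high prolificacy arrays did not reach.

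Stromal and endothelial genes differed little between the sets. Of 14 stromal fibroblast genes, 11 averaged lower in the keratin-rich arrays, with a median of -0.30 that was -0.11 without low 7. DCN, the collagen-binding decorin, lay between 12.29 and 12.94 in the 9 arrays, and VIM, vimentin, lay between 12.19 and 12.86. Larger spreads crossed the sets. COL1A2, a chain of type I collagen, was at 9.30, 9.72, 10.81 and 7.63 against 10.12, 10.23, 8.38 and 10.55, so low 8 and low 9 were the lowest. Of 13 blood endothelium genes, 11 averaged higher in the keratin-rich arrays, with a median of 0.16 that was -0.02 without low 7 and low 9. CDH5, the cadherin of endothelium, was at 8.77, 8.69, 8.06 and 7.92 against 8.68, 7.53, 7.28 and 7.61, and PECAM1 differed by 0.12 ± 0.24. The 3 lymphatic endothelium genes averaged lower, with a median of -0.24. None of these genes was called.

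**Figure D5:**
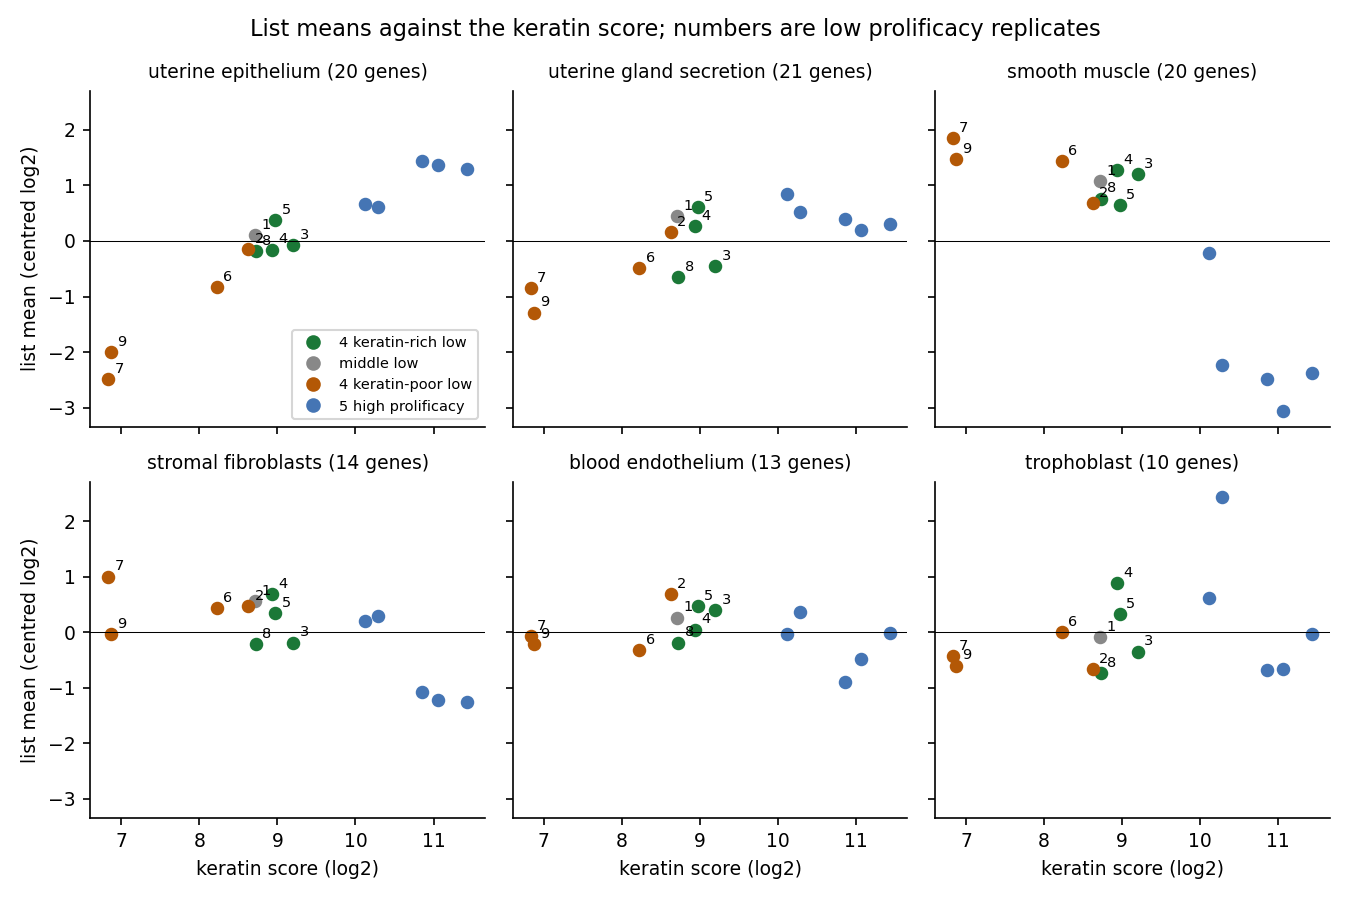
Mean centred log2 level of 6 gene lists (y axis) against the keratin score (x axis) for the 9 low prolificacy arrays, numbered by replicate, and the 5 high prolificacy arrays. Each gene was centred on its mean over the 14 arrays, so 0 is the average array. The epithelium mean is -2.48 in low 7 and -2.0 in low 9 and between -0.83 and 0.37 in the other low prolificacy arrays, whereas the smooth muscle mean is above 0 in all 9.

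Markers of white blood cells differed little between the sets. Of 10 macrophage and dendritic cell genes 7 averaged higher in the keratin-rich arrays, with a median of 0.16, and of 12 T and NK cell genes 6 did, with a median of 0.01. PTPRC, the common leukocyte antigen, lay between 3.45 and 4.25 in the 9 arrays. AIF1, an actin-binding protein of macrophages, was at 6.52, 7.46, 7.18 and 6.14 against 6.93, 6.14, 5.35 and 5.69. S100A9, a calcium-binding protein of neutrophils, was called on the score (slope 0.72 ± 0.13, limma adjusted p = 0.045), at 4.23, 4.43, 4.77 and 4.54 against 4.55, 3.88, 3.08 and 3.04. S100A9 was the 1 of the 3 neutrophil genes on the array to rise with the score, beside 1.27% of the 6762 genes. The 3 had a median difference of 0.13, S100A12 differed by 0.13 ± 0.13, and whether S100A9 came from neutrophils was not tested. The 3 B and plasma cell genes had a median of 0.28, the 2 mast cell genes 0.00, the 4 adipocyte genes 0.03 and the 5 nerve and glia genes -0.03. Of 3 red blood cell genes on the array, 2 averaged higher and 1 lower. Their median was 0.61, and -0.16 without low 7 and low 9, with 0 called.

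Transcripts of the conceptus varied between arrays in another order than the keratins. Of 10 trophoblast genes 9 averaged higher in the keratin-rich arrays, with a median of 0.49 that was 0.30 without low 7 and low 9, and 0 were called. PAG6, a pregnancy-associated glycoprotein of trophoblast, was at 5.35, 6.59, 9.37 and 4.65 against 5.01, 5.90, 4.80 and 7.20, and at 7.48 in the middle array. All 3 of its probe sets were highest in low 4, but the order of the next arrays differed between them, and the other 2 put low 5 and low 6 above the middle array. GATA3, a transcription factor of trophoblast, was at 4.79, 6.91, 8.02 and 4.55 against 4.85, 6.83, 5.09 and 5.17. Low 4 was highest for both, and low 3, which had the most keratin, was among the 4 lowest. HSD17B1, which makes oestradiol, was at 6.83, 7.00, 7.44 and 5.89 against 5.50, 6.50, 6.27 and 5.64, averaging higher by 0.81 ± 0.36. HBE1, a globin of embryonic red cells, was at 4.68, 12.65, 10.94 and 5.18 against 9.72, 5.43, 4.02 and 9.42, and at 10.92 in the middle array. It was high in 5 arrays and low in low 3, 8, 6 and 9. PAG and globin genes have close copies that may share probes. The 9 fetal plasma protein genes had a median of 0.06. Of the mesothelium list 2 of 5 genes were on the array, and WT1, a transcription factor also made in stroma and muscle of the uterus, was at 7.79, 7.40, 7.85 and 7.43 against 7.38, 8.31, 8.25 and 8.30, so it was not higher where keratin was. The 3 ciliated cell genes had a median of 0.37, and 0.04 without low 3. How much of the keratin came from trophoblast or mesothelium was not tested.

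Transport and hormone genes followed the sets by single members. Of 28 nutrient and ion transport genes 22 averaged higher in the keratin-rich arrays, with a median of 0.28 and 0 called. SCNN1B, a subunit of the epithelial sodium channel, was at 5.64, 5.88, 6.04 and 6.52 against 5.59, 5.55, 5.31 and 5.45, and SLC5A1, a sodium-glucose transporter, was at 3.86, 4.05, 4.02 and 5.61 against 3.33, 3.06, 3.58 and 3.31. These 2 of the 28 did not overlap between the sets, beside 1.98% of the 6762 genes. Of 21 steroid receptor and metabolism genes 15 averaged higher, with a median of 0.38. HSD17B7, which acts in cholesterol and oestradiol synthesis, was at 7.59, 8.66, 8.02 and 8.70 against 7.75, 6.44, 6.36 and 6.26, a difference of 1.54 ± 0.39 in which low 2 again stood with the keratin-rich arrays. PGR and ESR1, the progesterone and oestrogen receptors, differed by 0.10 ± 0.36 and 0.28 ± 0.38.

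Prostaglandin genes were uneven. Of 10 on the array 7 averaged higher in the keratin-rich arrays, with a median of 0.17, and 0.61 without low 7 and low 9. PTGS1, a cyclooxygenase, was at 5.96, 6.65, 6.18 and 6.59 against 5.58, 5.09, 5.22 and 5.97, averaging higher by 0.88 ± 0.24. PTGS2, the inducible cyclooxygenase, was at 4.45, 7.27, 7.02 and 9.34 against 6.11, 4.10, 6.31 and 3.47, with low 8 highest and low 3 among the 3 lowest. The median slope of the list on the score was -0.05, opposite in sign to its median difference between the sets. PTGR1, which breaks down prostaglandins, averaged higher by 1.01 ± 0.44.

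Immune defence, growth factor and housekeeping lists held few members that followed the keratins. Of 19 interferon response genes 13 averaged higher in the keratin-rich arrays, with a median of 0.14, and of 18 antigen presentation genes 15 did, with a median of 0.26 that was 0.01 without low 7 and low 9. Of 23 complement and coagulation genes 16 averaged higher, with a median of 0.12 and CFB, complement factor B, at 5.65, 6.39, 7.10 and 6.20 against 6.20, 5.02, 4.63 and 5.03. A second CFB probe set averaged 5.80 against 5.76, a difference of 0.04. Of 20 cytokine and chemokine genes 13 averaged higher, with a median of 0.10, and 1 rose with the score, beside 1.27% of the 6762 genes. This was TLR4, the receptor for bacterial lipopolysaccharide (slope 0.87 ± 0.15, limma adjusted p = 0.030). It was at 8.40, 8.21, 7.96 and 7.70 against 7.97, 7.29, 6.06 and 6.74. SMAD3, a transducer of TGF-beta and activin signals, was the 1 of 20 genes of its list to rise with the score, beside 1.27% of all genes (slope 0.72 ± 0.12, limma adjusted p = 0.024), at 7.23, 7.29, 6.45 and 6.56 against 6.32, 6.70, 5.38 and 5.36. TGFB2 averaged lower by both of the probe sets described, at -0.79 ± 0.26 and -0.67 ± 0.26, the latter its brightest. FZD5, a Wnt receptor, was at 9.70, 9.14, 8.13 and 8.78 against 8.20, 8.12, 7.46 and 6.01, and IGF1 averaged lower in the keratin-rich arrays, at -0.48 ± 0.18. LIPA, the lysosomal acid lipase, was the 1 of 19 lipid metabolism genes to rise with the score, beside the same 1.27% (slope 0.88 ± 0.14, limma adjusted p = 0.022), with 7.87 in low 9, 8.18 in low 7 and 9.50 to 10.39 in the other 7 arrays.

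No gene of the cell cycle, mitochondrial respiration or ribosome lists was called between the sets or on the score. Of 15 cell cycle genes 14 averaged higher in the keratin-rich arrays, beside 4085 of the 6762 genes, with a median of 0.39 that was 0.20 without low 9 and 0.17 without low 7 and low 9. Among 14 mitochondrial respiration genes 11 averaged higher, with a median of 0.19, and SDHA, SDHB and COX5B, subunits of respiratory complexes, did not overlap between the sets, beside 1.98% of the 6762 genes. SDHA was at 9.53, 9.11, 9.14 and 9.18 against 8.67, 8.72, 9.11 and 8.85, with low 9 and low 5 nearly level. A dimmer SDHA probe set overlapped between the sets, at 8.51, 8.18, 8.12 and 7.60 against 7.68, 8.08, 7.61 and 8.14. The 18 ribosomal protein genes had a median of 0.12. Over all genes the median was 0.07 and over all probe sets -0.003. Medians were between -0.10 and 0.08 for the junction and polarity, insulin-like growth factor, Wnt, TGF-beta, angiogenic factor, glycolysis, matrix remodelling, immediate early and retinoid lists.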

How the data were processed

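Values were the log2 levels that the authors deposited, made by RMA according to the submitters' processing notes, which name no version or settings. RMA equalises the distribution of intensities between arrays, so a shift shared by most transcripts would be lost. Array medians lay between 5.73 and 5.84. No batch is labelled, and the number of arrays limits precision. Of 24123 probe sets, 124 controls and 4 keratin probe sets were left out and 23995 tested. A symbol was used where the platform annotation gave exactly 1 (10065 probe sets, 6762 genes), of which 9957 were found by gene number in the Sscrofa11.1 gene table.

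Differences and slopes were fitted with limma 3.58.1 in R 4.3.3 (lmFit and eBayes, two-sided, no covariate), adjusted by the Benjamini-Hochberg method at 0.05 and tested on simulated data. The sows are biological replicates per the labels. The members and the 38 gene lists were chosen with earlier results of these data known. In lists, a gene is its brightest probe set over the 9 arrays. Named by rule were the 12 higher and 12 lower genes with the smallest p, the 2 with the smallest p of each list with at least 3 genes, and a set of fixed markers. KRT7, MYH11, COL1A1 and MSLN had no probe set with a single symbol. Other members named for their roles were chosen after their values were seen. The slope was planned as an alternative, and the settings tried on it were added after seeing the data, as was leaving out low 7 and low 9 together.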

Additional observations from a re-analysis of the deposited data

Results flagged for a closer look

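Among 166 measures examined over the 9 low prolificacy arrays, 7 had 1 array farther from the rest than the critical value of Dixon's ratio for 9 values, which chance alone passes in about 1 of 20 groups. CD27, a receptor of T cells, was at 5.12 in low 7 and between 4.45 and 4.70 in the other 8. IFNG, an interferon that pig trophoblast makes earlier in pregnancy, was at 4.31 in low 5 and between 2.67 and 3.29 elsewhere. APOA4, an apolipoprotein, was at 6.02 in low 5 against 3.89 to 4.41. HBB, the adult globin, was at 5.78 in low 3 against 7.25 to 8.11. SLC5A1, the glucose transporter, was at 5.61 in low 8 against 3.06 to 4.05, so its separation between the sets was widest there. RBP5, a retinol-binding protein, was at 3.48 in low 9 against 4.10 to 4.53. The mean of the 3 ciliated cell genes was 1.07 in low 3 against -0.18 to 0.43.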

How the results depend on the processing

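Between the keratin-rich and keratin-poor arrays, 0 probe sets were called by limma under every alternative of filter, normalization, weights, variance prior, pooled fit, 3 against 3 arrays, score and covariate, and 0 with each array left out (with 454 to 1745 at an unadjusted p under 0.05) or low 7 and low 9 together. The exceptions were the slope on the score, with 239 calls, and a rule of 1.5-fold or more at an unadjusted p under 0.01, with 110. Array weights gave 2536 at an unadjusted p under 0.05. No paired analysis was possible because both sets lie within the low prolificacy group and share no replicate number.

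On the score, the count was 204 to 270 with the brightest 12000 probe sets, cyclic loess, array medians or the trend and robust prior, and 194 with the trophoblast mean as a covariate. It was 4676 with array weights (2091 rising, 2585 falling), 540 at an adjusted p of 0.10 and 0 with the smooth muscle covariate. Leaving out 1 array gave 1 to 847. Without low 7 and low 9, or low 3 as well, it was 0. Of 30 named probe sets called, 0 remained without low 7 and 12 without low 9. Of 2611 named differences recomputed 80 changed sign and of 2488 slopes 89 did, and 0 calls reversed. The causes were not tested, and dim probe sets have no detection call.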

Other observations

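CBR1, a carbonyl reductase that acts on prostaglandins and steroids, had one of the widest spreads among the listed genes and was singled out after its values were seen. It was at 2.51, 6.91, 7.85 and 3.37 in the keratin-rich arrays low 3, 5, 4 and 8, at 10.11 in low 1, and at 5.35, 2.88, 4.02 and 8.19 in the keratin-poor arrays low 2, 6, 9 and 7. The sets differed by 0.05 ± 1.46 (SE, n = 4 and 4). Low 1, low 7 and low 4, in that order, had the most. PTGDS, a prostaglandin D synthase, was highest in low 9 at 10.10 and in low 3 at 10.07, from opposite ends of the keratin order, and lay between 7.72 and 8.43 in the other 7 arrays.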
